A study of Macaca mulatta with 21 samples.

Results

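The genes described here are the fibroblast growth factors (FGFs), their receptors and the genes that FGF signalling switches on to restrain or report itself. They were chosen by symbol: genes named FGF with a number, the receptors, the FGF-binding protein FGFBP1, the Sprouty (SPRY) and SPRED proteins, the phosphatases DUSP4, DUSP5 and DUSP6, and the transcription factors ETV1, ETV4 and ETV5. Of the 14133 genes that a probe set names by a single symbol, 32 matched: 11 secreted ligands, 3 endocrine ligands, 4 intracellular homologous factors, 5 receptors, 1 binding protein, 6 feedback inhibitors and 2 ETS transcription factors. FGF1, FGF7, FGF8, FGF10, DUSP6, ETV5, SPRY3, SPRED1 and SPRED3 also fit the rule by name but were not analysed here.

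Affymetrix arrays measured messenger RNA in 7 rhesus macaque (Macaca mulatta) lines, each on 3 arrays called A, B and C. The reference pluripotent line, ORMES23, is male and was derived from an embryo made by in vitro fertilization. Nuclear transfer of somatic cells gave the cloned blastocysts behind the other embryonic stem cell lines, the male CRES-1 and the female CRES-3. The induced pluripotent lines RiPS1 (male, from fetal skin fibroblasts), RiPS2 (female, donor age 10 years) and RiPS3 (female, donor age 8 years) were obtained by retroviral transduction of OCT4, SOX2, KLF4 and cMYC. The skin fibroblasts came from a biopsy of an adult female aged 8 years. Every line, fibroblasts included, grew on mouse embryonic fibroblast feeders in serum-containing medium, and the labels name no added FGF. The pluripotent medium was DMEM/F12 with more serum and the colonies were picked by hand, while the fibroblasts grew in DMEM and were trypsinized, so cell type, medium and harvest cannot be told apart in any comparison with the fibroblasts. The labels call the arrays biological replicates, and each line is 1 derivation, so each test speaks for these lines and not for a route of reprogramming.

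FGFs bind cell-surface receptor tyrosine kinases together with heparan sulphate chains, and the receptors pass the signal on through the RAS-ERK kinase cascade. The cascade induces its own inhibitors, among them the Sprouty and SPRED proteins and the DUSP phosphatases, as well as the ETS factors ETV1 and ETV4, so that transcripts of these genes are commonly read as a record of pathway activity. In primate pluripotent cells FGF2 is known as a factor that supports self-renewal, and FGF signals also take part when such cells enter mesendoderm, the common precursor of mesoderm and endoderm.

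Values are log2 intensities: a difference of 1 means a 2-fold difference in signal. Each gene was read from its brightest probe set, and levels of different genes are not compared, because probe sets differ in how strongly they bind. A gene was tested where it reached log2 5 on at least 3 arrays, and 27 of the 32 members did. The words rose, fell and called are kept for genes where limma's adjusted p (Benjamini-Hochberg, over 11143 genes) was under 0.05 and the log2 difference at least 1. Under log2 5 a signal lies near background, so a fold against such a mean is a lower bound counted from log2 5. In these bulk samples, fewer cells of a type and less RNA per cell cannot be told apart.

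The means of the marker lists bore out the labels, though not every marker did. The mean of 8 measured pluripotency markers was 9.55 to 10.0 on the 18 pluripotent arrays and 4.08 to 4.41 on the fibroblast arrays. Among them ZFP42 (3.75 to 7.49 beside 3.93 to 4.29) and TERT (5.17 to 6.09 beside 4.55 to 5.28) overlapped between the groups. The mean of 11 measured fibroblast markers was 9.64 to 9.85 on the fibroblast arrays and 6.01 to 7.12 on the pluripotent ones. Of those 11, 8 did not overlap between the groups, and the share over all genes was not counted. FAP and PRRX1 lay below log2 5 on all 18 pluripotent arrays (highest 4.15 and 3.87), while the collagen gene COL1A1 lay between 8.75 and 10.5 there. THY1, TWIST2 and DCN overlapped. DCN read 6.08 to 7.70 on the pluripotent arrays and 6.36 to 6.53 on the fibroblast ones.

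**Figure D1:**
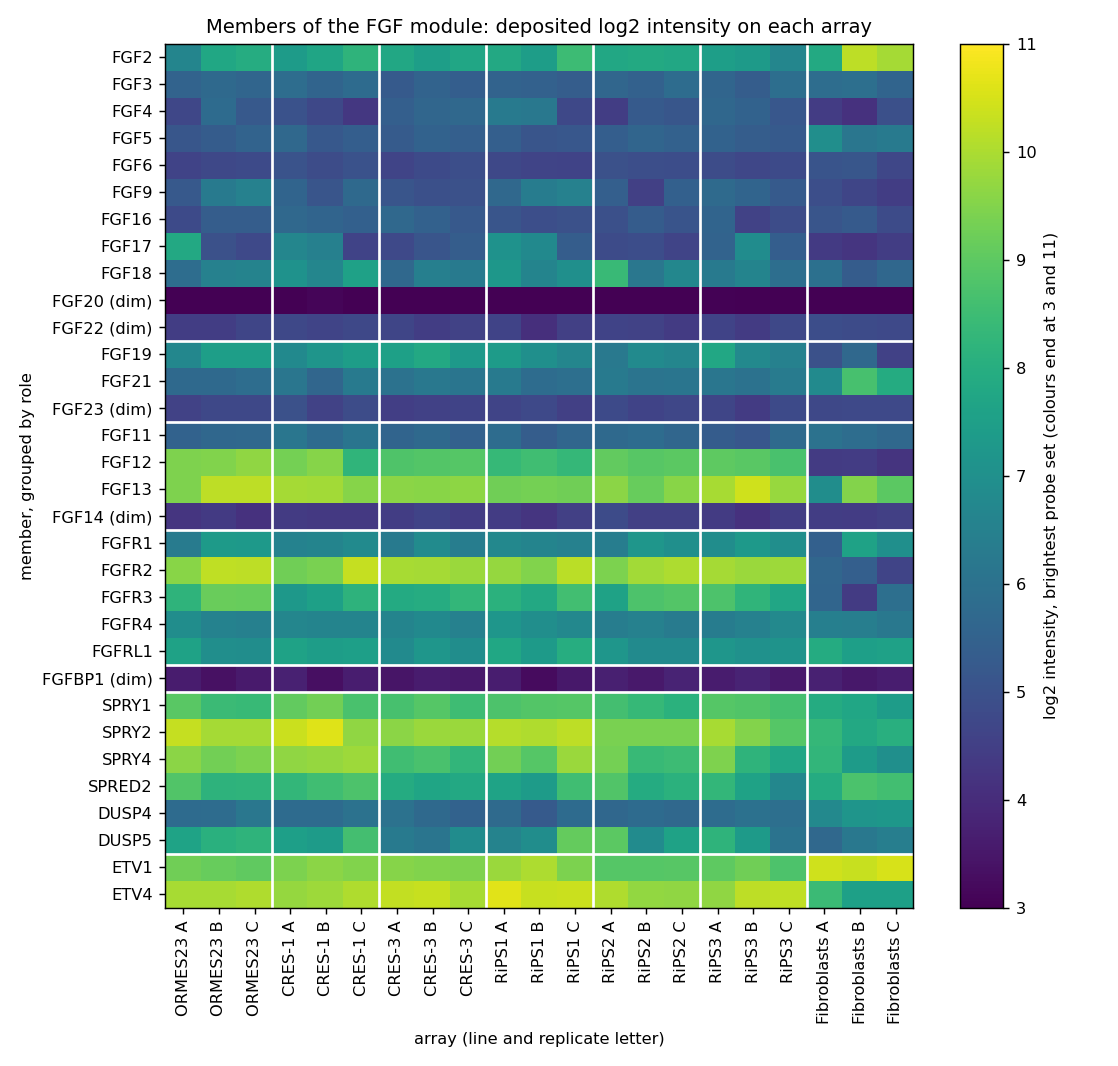
Deposited log2 intensity of each of the 32 members (rows, grouped by role) on each of the 21 arrays (columns, grouped by line), from the brightest probe set of each gene, with colours ending at 3 and 11. FGFR2, FGFR3, FGF12, FGF19, ETV4 and SPRY2 are darker on all 3 fibroblast arrays than on the pluripotent ones, FGF21 is brighter on all 3, FGF2 on B and C, and the 5 members marked dim stay below the filter.

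Against the fibroblasts, the pluripotent lines shared a core of 9 members that moved in the same direction in all 6 comparisons. ETV4, FGF12, FGF19, FGFR2, FGFR3 and SPRY2 rose in all 6, and DUSP4, FGF2 and FGF21 fell in all 6. Of these 9, 8 stayed called in all 6 under every alternative setting and with any single array left out, the exception being FGF2. Another 10 members were called in some lines, and 8 in none: FGF3, FGF6, FGF11, FGF16, FGFR1, FGFR4, FGFRL1 and SPRED2. The 6 comparisons share the same 3 fibroblast arrays and are not independent of one another. Over all genes tested, 12.7% rose and 10.5% fell in all 6.

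Of the 27 members, 10 rose in ORMES23 against a background of 18.5% of all genes called higher, and 5 fell against 14.1%. In CRES-1, 11 rose (background 16.4%) and 4 fell (14.2%). In CRES-3, 8 rose (19.1%) and 4 fell (14.2%). For the induced lines the counts were 12 risen (19.3%) and 4 fallen (13.5%) in RiPS1, 9 risen (17.2%) and 4 fallen (14.6%) in RiPS2, and 9 risen (18.3%) and 5 fallen (14.2%) in RiPS3. The 5 members under the filter are outside these counts. As shares of the 27 members, 29.6% to 44.4% rose and 14.8% to 18.5% fell. The share of members that rose was thus above the background in every line, and the share that fell was close to it. The median log2 difference of the members ran from 0.33 in CRES-3 to 0.81 in RiPS1, beside medians of 0.02 to 0.05 over all genes.

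**Figure D2:**
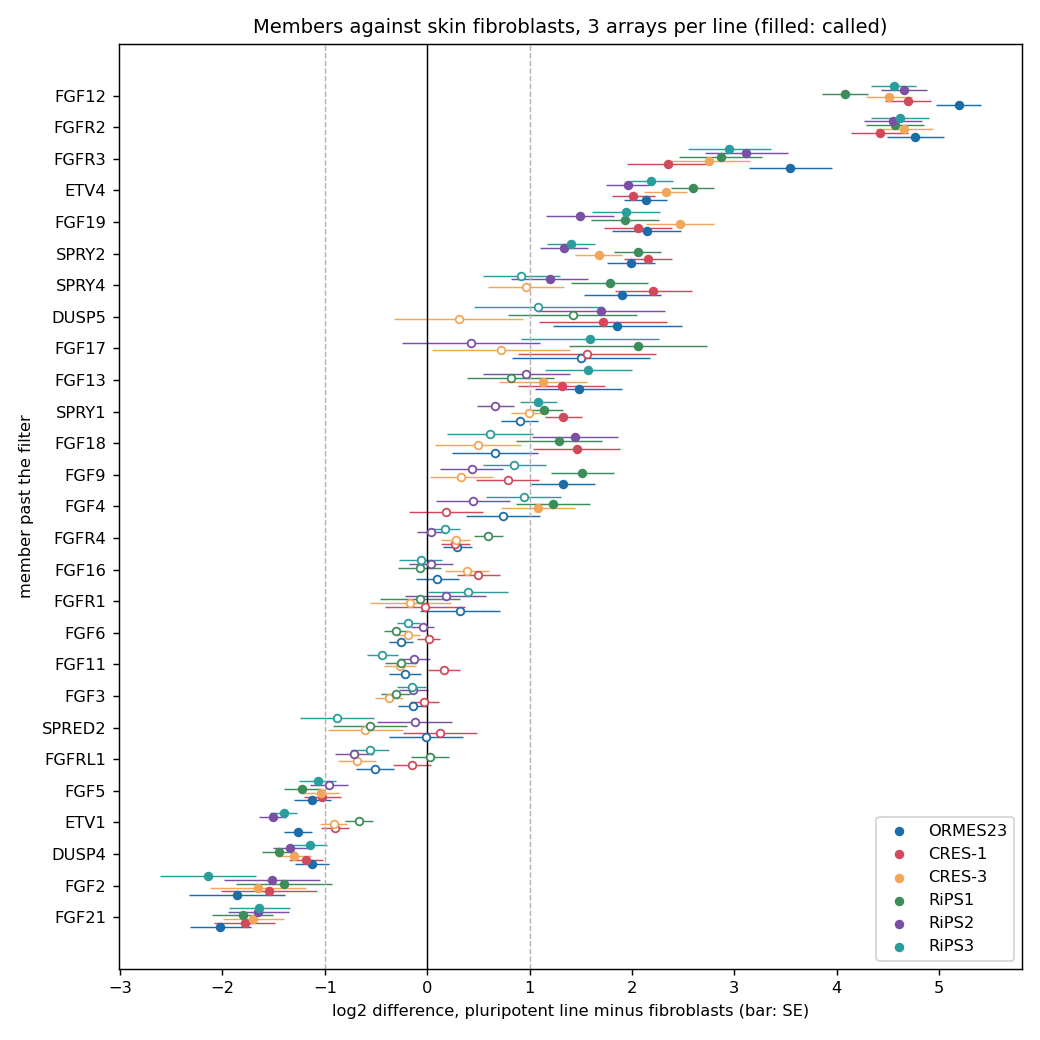
Log2 difference between each pluripotent line and the fibroblasts (x axis) for the 27 members past the filter (y axis, ordered by mean difference), with the standard error of the fit as bars, 3 arrays per line. Filled points passed both limits of a call. FGF12 and FGFR2 stand farthest to the right, at 4.08 to 5.19 and 4.42 to 4.77, and FGF2 and FGF21 farthest to the left in the mean over lines.

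Of the secreted ligands, FGF2 was the one called in all 6 lines, and it fell. FGF2 is the basic FGF that is added to many stem cell media. On the fibroblast arrays A, B and C it read 7.85, 10.19 and 9.93. On the pluripotent arrays its lowest, median and highest values were 6.65, 7.76 and 8.48, and every line mean was between 7.18 (RiPS3) and 7.92 (RiPS1). Fibroblast array A thus lay within the pluripotent range, and B and C lay above it. The log2 difference ran from -1.40 in RiPS1 (SE 0.47, adjusted p = 0.014) to -2.14 in RiPS3 (SE 0.47, adjusted p = 6.6e-04), which is 2.64-fold to 4.41-fold. Without fibroblast array A, all 6 falls were called again, at -2.14 to -2.88. With B or C left out instead, the calls of CRES-1, RiPS1 and RiPS2 were lost, at -0.97 to -1.24 (adjusted p of 0.051 to 0.093), and leaving out RiPS1 B also ended the RiPS1 call, at -1.17. When only the compared lines entered the fit, the falls of ORMES23, CRES-1, RiPS1 and RiPS2 were -1.40 to -1.86 with limma's adjusted p of 0.051 to 0.088, and were not called.

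FGF5, a ligand known from the step between the naive and the primed pluripotent state, was dim in the pluripotent lines and fell in 5 of them. It read 6.96, 6.14 and 6.26 on the fibroblast arrays and from 5.10 to 5.70 on the 18 pluripotent arrays, with a median of 5.39, so the groups did not overlap. The difference ran from -0.96 in RiPS2, short of the fold limit, to -1.22 in RiPS1. With fibroblast array A left out it was -0.71 to -0.97 and none of the 5 calls remained, although each adjusted p stayed at or under 7.7e-04. The CRES-1 call also ended without CRES-1 B (-0.91) or C (just short of the limit of -1), and the CRES-3 call without CRES-3 A (-0.97). Array weights ended the calls of ORMES23, CRES-1, CRES-3 and RiPS3, at -0.79 to -0.89. The other, dimmer FGF5 probe set, which did not pass the filter, differed by more: it averaged 5.59 in the fibroblasts and 2.87 to 3.17 in the pluripotent lines.

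FGF4, FGF9, FGF17 and FGF18 rose in some lines and not in others. FGF4, a ligand made by the inner cell mass, rose in CRES-3 (log2 1.08, SE 0.36, adjusted p = 0.014) and RiPS1 (1.23, SE 0.36, adjusted p = 0.0066). It averaged 4.50 ± 0.41 (SD, n = 3) in the fibroblasts, so these are folds of at least 1.503 and at least 1.66. Within RiPS1 its arrays were uneven, at 6.27, 6.20 and 4.73. The gene was therefore near background on RiPS1 C and on all 3 fibroblast arrays. The RiPS1 call was lost without RiPS1 A (0.96) or B (just under the limit of 1), and the CRES-3 call without fibroblast array B (0.91, adjusted p = 0.063). Array weights ended both calls, at 0.97 in RiPS1 and 0.64 in CRES-3.

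FGF9, a ligand with roles in gonad and lung development, rose in ORMES23 (log2 1.33, SE 0.31, adjusted p = 0.0011) and RiPS1 (1.51, SE 0.31, adjusted p = 3.4e-04), by at least 2.02-fold and at least 2.30-fold. Its arrays read 5.23, 6.29 and 6.52 in ORMES23, and 5.71, 6.37 and 6.52 in RiPS1. In CRES-3 they read 5.12, 4.95 and 4.99, close to the fibroblast values of 4.94, 4.67 and 4.45. FGF9 was thus above background in some pluripotent lines and near it in CRES-3.

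FGF18 rose in CRES-1 (log2 1.46, SE 0.42, adjusted p = 0.0062), RiPS1 (1.29, adjusted p = 0.013) and RiPS2 (1.44, adjusted p = 0.0064). It averaged 5.65 ± 0.32 (SD, n = 3) in the fibroblasts. The RiPS2 mean rested on 1 array: A read 8.43, while B and C read 6.16 and 6.70. Without RiPS2 A the difference was 0.78 and no longer called. The RiPS2 call was also lost with the mean of the probe sets (0.80) and with only the compared lines in the fit (limma adjusted p = 0.064). The other, dimmer FGF18 probe set differed by 0.15 to 0.90 over the 6 lines, and averaged 4.21 in RiPS2 beside 4.06 in the fibroblasts. The RiPS1 call was lost without fibroblast array B (1.13, adjusted p = 0.0504).

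FGF3, FGF6 and FGF16 were called in no line. FGF3 ran from 5.26 to 5.92 over all 21 arrays, FGF6 from 4.60 to 5.13 and FGF16 from 4.59 to 5.72. FGF20 (2.63 to 3.12) and FGF22 (4.07 to 4.88) did not pass the filter, and neither did the ligand-binding protein FGFBP1 (3.25 to 3.80). None of the 6 reached log2 6 on any array.

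Among the endocrine ligands, which travel in blood and need Klotho co-receptors, FGF19 rose in all 6 lines and FGF21 fell in all 6. FGF19 read 5.00, 5.70 and 4.56 on the fibroblast arrays and from 6.24 to 7.83, median 7.07, on the pluripotent ones. No pluripotent array overlapped a fibroblast array. Its log2 difference ran from 1.49 in RiPS2 (SE 0.33, adjusted p = 8.1e-04) to 2.47 in CRES-3 (SE 0.33, adjusted p = 4.0e-06).

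FGF21, a hormone of fasting metabolism, read 6.82, 8.68 and 7.92 on the fibroblast arrays and from 5.63 to 6.32, median 6.09, on the pluripotent arrays. The groups did not overlap, and the 3 fibroblast arrays differed more among themselves (SD 0.94) than the arrays of any pluripotent line (largest SD 0.35, in CRES-1). It fell by 1.64 (RiPS3) to 2.02 (ORMES23) on the log2 scale, SE 0.30. FGF23 stayed between 4.38 and 4.97 on every array and did not pass the filter.

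FGF3, FGF4 and FGF19 lie next to one another in the RefSeq rhesus annotation, and so do FGF23 and FGF6. The neighbours did not share a pattern against the fibroblasts: FGF19 rose in all 6 lines, FGF4 in 2 and FGF3 in none.

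The intracellular FGF homologous factors resemble FGFs in sequence but are not secreted, do not act through FGF receptors in the usual way, and are known to bind voltage-gated sodium channels. FGF12 rose in every line by amounts like those of the receptor FGFR2. It read 4.39, 4.42 and 4.20 on the fibroblast arrays, below the filter, and from 8.22 to 9.67, median 8.94, on the pluripotent ones. Line means were 9.53 ± 0.12 in ORMES23, 9.04 ± 0.71 in CRES-1, 8.85 ± 0.05 in CRES-3, 8.42 ± 0.12 in RiPS1, 8.999 ± 0.066 in RiPS2 and 8.89 ± 0.18 in RiPS3 (SD, n = 3). These are rises of at least 10.7-fold (RiPS1) to at least 23.1-fold (ORMES23), with log2 differences of 4.08 to 5.19 (SE 0.22, adjusted p = 3.8e-11 or less). The other 2 FGF12 probe sets moved the same way in every line, by 4.03 to 4.53 and by 1.79 to 2.84.

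FGF13 was bright in every line, and its calls depended on 1 fibroblast array. It read 6.91, 9.52 and 8.99 on the fibroblast arrays and from 9.15 to 10.42 on the pluripotent ones. With all arrays it rose in ORMES23 (log2 1.48), CRES-1 (1.31), CRES-3 (1.13) and RiPS3 (1.57), each with SE 0.43. Without fibroblast array A the differences in those 4 lines were 0.35 to 0.79, and none was called. In CRES-3 the call was also lost when any single array of that line was left out (1.11 to 1.15, adjusted p of 0.053 to 0.061).

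FGF11 gave contradictory probe sets. Its brightest one differed from the fibroblasts by -0.44 to 0.17 and was called in no line. The other was higher in every pluripotent line, by 0.81 to 1.60, and it was not tested because only the brightest was fitted. FGF14 stayed below the filter, between 4.14 and 4.84 on all arrays.

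The receptors differed sharply from one another: FGFR2 and FGFR3 rose in every pluripotent line, while FGFR1, FGFR4 and FGFRL1 were called in none. FGFR2 read 5.63, 5.41 and 4.65 on the fibroblast arrays and from 9.26 to 10.30, median 9.86, on the pluripotent arrays. Its log2 difference lay in a narrow band, from 4.42 in CRES-1 (SE 0.28, adjusted p = 2.7e-10) to 4.77 in ORMES23 (SE 0.28, adjusted p = 9.4e-11), which is 21.4-fold to 27.2-fold. The pluripotent line means differed from each other by at most 0.35.

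FGFR2 is covered by 7 probe sets. The brightest, which was tested, differed by 4.42 to 4.77. The next 2, which were not, differed in the same direction, by 3.43 to 3.74 and by 1.43 to 2.03. Another differed by 0.41 to 0.61, and the 3 dimmest, with means of 3.63 to 4.37 over all arrays, differed by -0.19 to 0.38. FGFR2 is known to be spliced into epithelial and mesenchymal forms that bind different ligands, and the annotation used here does not say which form a probe set reads.

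FGFR3 read 5.60, 4.39 and 5.91 on the fibroblast arrays and from 7.25 to 9.19, median 8.19, on the pluripotent arrays, with no overlap. It rose by 2.36 in CRES-1 (SE 0.41, adjusted p = 6.8e-05) to 3.54 in ORMES23 (SE 0.41, adjusted p = 5.8e-07), or 5.12-fold to 11.7-fold. The other probe set went the other way in all 6 lines, by -0.57 to -0.19, at line means of 6.43 to 6.81 against 7.005 in the fibroblasts. The FGFR3 rise therefore rests on 1 of its 2 probe sets.

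FGFR1, the main receptor for FGF2 in many mesenchymal cells, had overlapping ranges. The fibroblast arrays read 5.45, 7.61 and 6.98, wider than the whole pluripotent range of 6.30 to 7.35. Differences ran from -0.16 to 0.39 (SE 0.39), and from -0.78 to -0.22 without fibroblast array A. With an SE of this size, a 2-fold difference was hard to resolve for this gene, so the missing call does not show equal levels.

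FGFR4 ran from 6.21 to 7.21 over all arrays and differed from the fibroblasts by 0.04 to 0.60. In RiPS1 that difference passed the adjusted p (0.0014) but not the fold limit. FGFRL1, a receptor that lacks the kinase domain, differed by -0.71 to 0.03 and reached an adjusted p under 0.05 without the fold in ORMES23, CRES-3, RiPS2 and RiPS3.

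**Figure D3:**
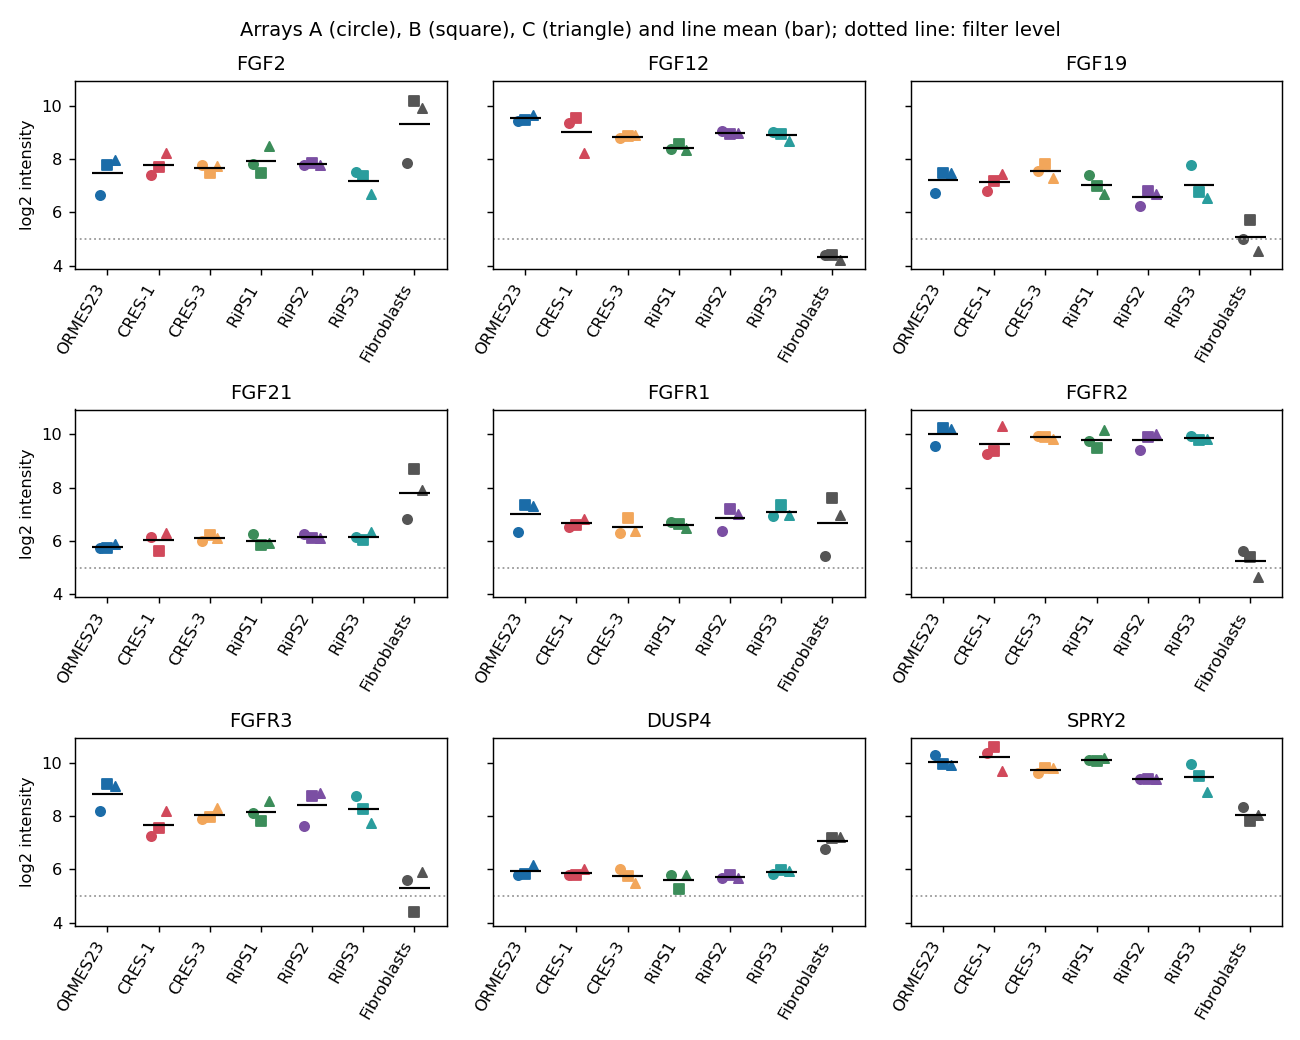
Log2 intensity (y axis) of 9 members in the 7 lines (x axis), with arrays A, B and C as circle, square and triangle, the line mean as a bar and the filter level of 5 as a dotted line. FGFR2, FGF12 and FGF19 separate the fibroblasts from every pluripotent array from below, FGF21 and DUSP4 from above, and in the FGF2 and FGFR1 panels fibroblast array A lies apart from B and C.

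The feedback inhibitors were split. The Sprouty genes were higher in the pluripotent lines, DUSP4 was lower, DUSP5 was called higher in 3 lines and SPRED2 was called in none. SPRY2 read 8.32, 7.81 and 8.04 on the fibroblast arrays and from 8.90 to 10.61, median 9.85, on the pluripotent arrays. The groups did not overlap, and SPRY2 rose by 1.33 (RiPS2) to 2.15 (CRES-1), SE 0.23. The other probe set, of like brightness in the pluripotent lines, gave much larger differences of 4.49 to 4.97, since it averaged 5.36 in the fibroblasts. Both SPRY2 probe sets agree in direction, and the size of the rise depends on which is read.

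SPRY4 rose in ORMES23 (log2 1.90), CRES-1 (2.21), RiPS1 (1.78) and RiPS2 (1.197), each with SE 0.38. In CRES-3 (0.96) and RiPS3 (0.92) it passed the adjusted p (0.032 and 0.041) but not the fold limit. The fibroblast arrays read 8.27, 7.38 and 6.98, and without array A all 6 lines were called, at 1.28 to 2.57. The RiPS2 call ended without RiPS2 A (0.90) or fibroblast array C (0.92). SPRY1 rose in CRES-1 (1.33), RiPS1 (1.14) and RiPS3 (1.08), SE 0.18, and differed by 0.66 to 0.99 in the others. Without fibroblast array C the RiPS3 difference was 0.95 and not called, and without array A SPRY1 was called in 5 lines. Its fibroblast arrays, at 7.93, 7.73 and 7.43, lay below all 18 pluripotent arrays (8.10 to 9.28).

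DUSP4, a nuclear phosphatase of ERK, fell in every line. It read 6.76, 7.18 and 7.23 on the fibroblast arrays and from 5.25 to 6.17, median 5.80, on the pluripotent ones, without overlap. The fall was 1.13 (ORMES23) to 1.45 (RiPS1) on the log2 scale, SE 0.17, and a dimmer probe set that did not pass the filter moved alike, by -1.49 to -1.22.

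DUSP5, the ERK phosphatase of the same class, went the other way where it was called. It rose in ORMES23 (log2 1.86), CRES-1 (1.72) and RiPS2 (1.70), SE 0.63, with adjusted p of 0.016, 0.026 and 0.026. In CRES-3 the difference was 0.31. RiPS1 (7.53 ± 1.38) and RiPS3 (7.20 ± 1.09) were not called, beside 6.11 ± 0.37 in the fibroblasts (SD, n = 3). In the fit of all arrays, no DUSP5 difference between pluripotent lines was called. Without fibroblast array A the 3 calls were lost, at adjusted p of 0.053 to 0.081 and differences of 1.496 to 1.66. Without CRES-1 C the CRES-1 call was lost (1.33, adjusted p = 0.11), and without RiPS2 A the RiPS2 call (1.12, adjusted p = 0.15). SPRED2, an inhibitor of RAF activation, differed by -0.88 to 0.12 (SE 0.36). Under some alternatives it was called, in RiPS3 alone: at -1.12 without fibroblast array A, -1.27 without RiPS3 A and -1.003 with array weights.

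The ETS factors moved apart. ETV4 read 8.46, 7.54 and 7.54 on the fibroblast arrays and from 9.67 to 10.63, median 10.04, on the pluripotent ones, and it rose by 1.96 (RiPS2) to 2.59 (RiPS1), SE 0.21. The other ETV4 probe set gave 1.77 to 2.52. ETV1 was brightest in the fibroblasts, at 10.41, 10.32 and 10.51, above all 18 pluripotent arrays (8.77 to 10.01). It fell in ORMES23 (log2 -1.26), RiPS2 (-1.51) and RiPS3 (-1.40), SE 0.13, and differed by -0.90 in CRES-1, -0.92 in CRES-3 and -0.67 in RiPS1, where the adjusted p passed and the fold did not. The other ETV1 probe sets, both dimmer, differed less, by -0.41 to 0.04 and by -0.59 to -0.20. With the mean of all its probe sets the 3 calls were lost, at -0.68 in ORMES23, -0.76 in RiPS2 and -0.73 in RiPS3, so the ETV1 calls rest on 1 of 3 probe sets.

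The arrays of the fibroblasts were not alike for these genes. Compared with B and C, array A was low for FGF2, FGF13, FGF21 and FGFR1, and high for ETV4, SPRY4 and FGF5. Its fibroblast marker mean was 9.85, beside 9.64 on B and 9.76 on C, but the markers were split. COL1A1, COL1A2, COL3A1 and FAP were lowest on A. THY1, PRRX1, LUM, TWIST1 and S100A4 were highest on A, and DCN and TWIST2 lay between. The pluripotency marker mean was 4.41 on A, beside 4.08 on B and 4.22 on C. Of the 9 members called in all 6 lines, all 9 were called in all 6 again without array A. What sets array A apart was not tested.

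Other genes of the pathway were counted from 4 lists. Over all genes tested, 16.4% to 19.3% were called higher and 13.5% to 14.6% lower in a given line, with medians of 0.02 to 0.05. Of the heparan sulphate and co-receptor list, 24 of 28 genes were measured and 21 tested, and 3 or 4 rose and 3 to 6 fell in each line. The largest rises were the glypicans GPC3 (log2 3.51 to 4.03), GPC4 (2.76 to 3.06) and GPC6 (2.38 to 2.85), which carry heparan sulphate on the cell surface. SULF1, which removes sulphate groups from those chains, fell by 3.37 to 4.51 in all 6 lines. The next largest falls were those of FLRT2 (-2.03 to -0.86, called in 5 lines) and the syndecan SDC1 (-1.73 to -1.06, in all 6). The median difference of this list was -0.21 to 0.16.

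Of the adaptors and kinases of the RAS-ERK cascade, 19 of 25 were measured and tested, of which 3 or 4 rose and 1 fell. Their median difference was 0.15 to 0.40. KSR1, a scaffold of the cascade, rose by 2.40 to 2.98 and the kinase RPS6KA1 by 1.54 to 1.88, both in all 6 lines. PLCG1 rose in 5 lines, and it differed by 0.95 to 1.29 over the 6. MAPK3, the gene of ERK1, fell in all 6 by 1.44 to 1.73, and the remaining 14 to 15 genes were not called in a given line.

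Among other inhibitors of the cascade, 13 of 16 were measured and tested, of which 0 to 2 rose and 3 or 4 fell. Their median difference was -0.56 to -0.42, below the medians over all genes. DUSP1 (-3.50 to -2.26), DUSP14 (-2.35 to -1.15) and LZTR1 (-1.55 to -1.33) fell in all 6 lines. DUSP16 rose in 2 lines (0.68 to 1.27 over the 6) and IL17RD in 1. Of the early response genes, 10 of 17 were measured and tested, of which 1 to 3 rose and 2 or 3 fell. Their median difference was -0.51 to 0.44. EGR2, a transcription factor induced by ERK, averaged 4.92 in the fibroblasts and 7.51 to 9.93 in the pluripotent lines and rose in all 6. FOS and IER2 rose in CRES-1 alone, by 2.29 and 1.49, and over the 6 lines they differed by -1.26 to 2.29 and by 0.09 to 1.49. CCND1 (-3.13 to -1.58) and ELK3 (-2.32 to -1.14) fell in all 6, and JUNB fell in 5.

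Within the pluripotent lines few members were called, although their differences were larger in size than those of genes at large. The median size of the log2 difference from ORMES23 was 0.30 for members beside 0.15 for all genes in CRES-1, 0.31 beside 0.16 in CRES-3, 0.32 beside 0.17 in RiPS1, 0.25 beside 0.15 in RiPS2 and 0.17 beside 0.15 in RiPS3. Against ORMES23, limma called 0 members in CRES-1 (background 0%), 0 in CRES-3 (0.996%), 0 in RiPS2 (0.458%) and 0 in RiPS3 (0.763%), and 6, 5, 3 and 4 members respectively had an unadjusted p under 0.05, beside 11.4%, 16.9%, 11.9% and 14.6% of all genes. In RiPS1, 1 member was called beside a background of 2.4%. It was FGF12, which fell by 1.11 on the log2 scale (SE 0.22, adjusted p = 0.0048): the RiPS1 arrays read 8.37, 8.56 and 8.33, all below the ORMES23 arrays of 9.44, 9.48 and 9.67. FGF12 was also the member with the smallest adjusted p in RiPS3 against ORMES23, at -0.64 and 0.17, and that difference was not called.

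Cloned and induced lines of the same labelled sex were compared as CRES-1 minus RiPS1 and CRES-3 minus RiPS3. Limma called 0 members in the male pair (background 2.14%) and 0 in the female pair (0.0359%), where 8 and 2 members had an unadjusted p under 0.05, beside 22% and 7.91% of all genes. FGF4 was nearest to a call in the male pair, at -1.05 (SE 0.36, adjusted p = 0.095). In the female pair ETV1 was nearest, at 0.49 (SE 0.13, adjusted p = 0.24). The difference between both contrasts, tested as an interaction, was called for 0 members (background 2.89%), with 4 at an unadjusted p under 0.05 beside 20% of all genes.

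An F test over the 6 pluripotent lines, with the range of the line means as its size, called 2 of 27 members, 7.41%, beside 7.52% of all genes. The median range was 0.74 for members and 0.44 for all genes. FGF9 ranged over 1.18 (adjusted p = 0.045), from 5.02 ± 0.09 in CRES-3 to 6.20 ± 0.43 in RiPS1 (SD, n = 3). FGF12 ranged over 1.11 (adjusted p = 0.033). Passing the adjusted p with a range under 1 were another 3 members, ETV1 (0.84, adjusted p = 0.0015), FGFRL1 (0.74, adjusted p = 0.031) and SPRY2 (0.82, adjusted p = 0.048). ETV1 was highest in RiPS1 (9.74 ± 0.29) and lowest in RiPS2 (8.90 ± 0.01). Neighbours in the order of line means were not tested against each other. CRES-1 (9.51 ± 0.08) and CRES-3 (9.50 ± 0.05) did not differ beyond their spread. The RiPS1 arrays (9.43 to 10.01) overlapped those of CRES-1 (9.44 to 9.60), and the RiPS2 arrays (8.89 to 8.92) lay within the RiPS3 range (8.77 to 9.25).

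Both F calls were close to the limit of the adjusted p, and leaving out single arrays ended them. In some of these cases the range did not change. It stayed at 1.11 for FGF12 without CRES-3 A or B, and at 1.18 for FGF9 without RiPS3 B or C. FGF12 lost its call under 10 of 25 alternatives, 9 of which left out 1 array of ORMES23, CRES-3, RiPS1 or RiPS2, at adjusted p of 0.0502 to 0.098. FGF9 lost its call under 13 of 25, 11 of which left out 1 array, of any of the lines except RiPS2, at adjusted p of 0.0504 to 0.11. The fall of FGF12 in RiPS1 against ORMES23 kept its call under 12 of 13 alternatives, and with the mean of its probe sets it was -0.85. The early response genes FOS (range 3.55), JUNB (2.00) and IER2 (1.39) were also called by the F test, and 0 genes of the other 3 lists were.

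The arrays of a line differed from each other more for the members than for genes at large. The median SD over the 3 arrays of a line was 0.31 for members beside 0.15 for all genes in ORMES23, 0.25 beside 0.15 in CRES-1, 0.15 beside 0.12 in CRES-3, 0.29 beside 0.17 in RiPS1, 0.20 beside 0.16 in RiPS2 and 0.27 beside 0.18 in RiPS3. In the fibroblasts the values were 0.32 and 0.22. The spread was thus least in CRES-3. It involved groups of members that were high or low on the same arrays.

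FGF17, a ligand of the FGF8 subfamily, varied widely within 4 of the lines. Its arrays A, B and C read 7.82, 4.99 and 4.77 in ORMES23, 6.67, 6.49 and 4.60 in CRES-1, and 7.07, 6.80 and 5.36 in RiPS1. In RiPS3 they read 5.54, 6.89 and 5.40, while CRES-3 (4.77, 5.10 and 5.36) and RiPS2 (4.83, 4.90 and 4.63) had no high array. Of the 18 arrays, 6 lay at or above 6.49 and 12 at or below 5.54, and the fibroblasts read 4.37, 4.25 and 4.44. FGF17 rose against the fibroblasts in RiPS1 (log2 2.06, SE 0.67, adjusted p = 0.013), by at least 2.66-fold, and in RiPS3 (1.59, SE 0.67, adjusted p = 0.048), by at least 1.92-fold. The RiPS1 call was lost without RiPS1 A (1.72, adjusted p = 0.057), and the RiPS3 call without any 1 of the fibroblast arrays or of RiPS3 A and B (1.12 to 1.79, adjusted p of 0.055 to 0.21). ORMES23 (1.51, adjusted p = 0.060) and CRES-1 (1.56, adjusted p = 0.054) were not called.

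The same 6 arrays were the highest for GSC, a transcription factor of the mesendoderm and the organizer. GSC lay between 8.63 and 10.9 on those 6 and between 5.31 and 7.89 on the other 12. After each line's mean was taken off, Pearson's r of FGF17 and GSC was 0.98 and Spearman's rho 0.97 over 18 arrays, and r was 0.97 without ORMES23 A and CRES-1 C, the arrays farthest out. Of 11142 other genes tested, GSC had the highest r with FGF17. Since the arrays fall into separate sets, r was also taken within each, there on the values as read, with line means left in. This uncentred r was 0.91 over the 6 and 0.94 over the 12, and differences between lines enter it. FOXA2, a transcription factor of endoderm, gave a line-centred r of 0.96 over all 18 (rank 5 of 11142), and the receptor CXCR4 gave 0.95. Within the sets, again uncentred, r was 0.94 and 0.82 for FOXA2, and 0.90 and 0.62 for CXCR4. These are descriptions of arrays that share lines and hybridisations, and no p is attached.

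The mean of the endoderm markers was higher on the arrays with high FGF17. The mean of 6 measured endoderm markers was 9.55 on ORMES23 A beside 7.46 and 6.98 on B and C, 8.04 and 7.85 on CRES-1 A and B beside 6.27 on C, and 8.22 and 7.80 on RiPS1 A and B beside 7.09 on C. In RiPS3 it was 8.10 on B, the array with high FGF17, beside 7.55 on A and 6.73 on C. Over the 6 arrays with high FGF17 that mean was 7.80 to 9.55, and over the other 12 it was 6.13 to 7.56, so these did not overlap. Of the 6 endoderm markers, 5 had a line-centred r with FGF17 above 0, and AFP had -0.55.

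The means of the other marker lists overlapped between the 6 arrays and the 12. Of 10 fibroblast markers tested, 8 had an r with FGF17 above 0, from 0.01 (PRRX1) to 0.71 (DCN). The 2 below it were THY1 (-0.63) and COL1A1 (-0.59). Of 8 mesendoderm markers tested, 4 had an r with FGF17 above 0, among them GSC and MIXL1 (0.87), and 4 below it: BMP4 (-0.78), HAND1 (-0.23), MESP1 (-0.12) and WNT3 (-0.08). Of 8 trophoblast markers 7 had an r below 0, and so did the 1 ectoderm marker tested (-0.53). On ORMES23 A the trophoblast mean was 6.26 beside 7.30 and 7.20 on B and C, and the mean of the 2 measured ectoderm markers was 3.84 beside 5.69 and 5.89. The pluripotency marker mean was 9.60 to 9.90 on the 6 arrays and 9.55 to 10.0 on the 12. Its members were split, with 4 of 8 below 0: r was -0.79 for POU5F1, -0.81 for SOX2, -0.81 for DPPA4 and -0.38 for LIN28B. POU5F1 read 11.4 on ORMES23 A beside 12.2 on both B and C. The part that cells of another type play in the FGF17 level was not tested.

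**Figure D4:**
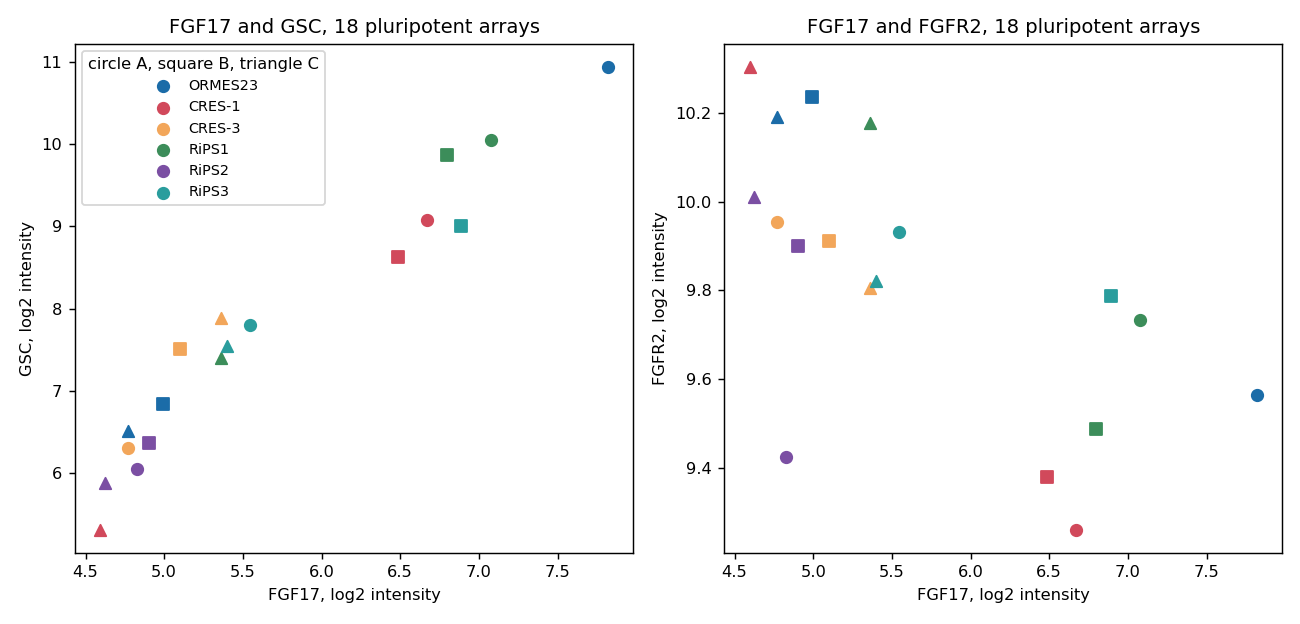
FGF17 log2 intensity (x axes) against GSC (left) and FGFR2 (right) on the 18 pluripotent arrays, coloured by line, with arrays A, B and C as circle, square and triangle. The 6 arrays with FGF17 at or above 6.49 are the 6 highest for GSC, and on them FGFR2 lies between 9.26 and 9.79.

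FGFR2 was lower on the arrays with high FGF17. It lay between 9.26 and 9.79 on the 6 and between 9.42 and 10.3 on the 12. In CRES-1, for example, it read 9.26 and 9.38 on A and B and 10.30 on C. The line-centred r was -0.82 over 18 arrays. On the values as read, with line means left in, r was -0.64 over the 18, 0.40 over the 6 and -0.20 over the 12. A line-centred r within the sets was not taken. For FGF2 the line-centred r with FGF17 was -0.73, and FGF2 read 6.65 on ORMES23 A, where FGF17 was highest, beside 7.77 and 7.96 on B and C.

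FGFR2, FGFR3 and FGF2 varied together. The line-centred r over 18 arrays was 0.83 for FGFR2 with FGFR3, 0.78 for FGF2 with FGFR3 and 0.76 for FGF2 with FGFR2, and with the 2 farthest arrays left out it was 0.80, 0.72 and 0.67. ORMES23 A and CRES-1 A were low for all 3 genes within their line. CRES-1 C was high for all 3, as was RiPS1 C. In RiPS2 FGF2 hardly varied (SD 0.04), while FGFR3 did (SD 0.69). These r are among the highest of all pairs of members. Many other genes were as like FGF2: by r with it, FGFR3 ranked 206 and FGFR2 241 of 11142 genes.

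Another set of arrays was high for the feedback inhibitors DUSP5, SPRED2 and SPRY4. DUSP5 read 9.11 on RiPS1 C beside 6.57 and 6.92 on A and B, 8.97 on RiPS2 A beside 6.84 and 7.62, and 8.19 on RiPS3 A beside 7.37 and 6.03. SPRED2 read 8.55 on RiPS1 C beside 7.64 and 7.38, 8.84 on RiPS2 A beside 7.93 and 8.11, and 8.31 on RiPS3 A beside 7.61 and 6.69. SPRY4 read 9.80 on RiPS1 C beside 9.29 and 8.89, 9.34 on RiPS2 A beside 8.38 and 8.50, and 9.45 on RiPS3 A beside 8.205 and 7.74. In each induced line the same array was therefore highest for all 3 genes, and so was CRES-1 C in its line. ORMES23 and CRES-3 did not show this. ORMES23 A was highest for SPRED2 (0.42 above the line mean) and SPRY4 (0.17) and lowest for DUSP5 (-0.34), and in CRES-3 each gene peaked on a different array.

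The line-centred r was 0.90 for SPRED2 with SPRY4, 0.83 for DUSP5 with SPRED2 and 0.73 for DUSP5 with SPRY4. With the 2 farthest arrays left out these were 0.83, 0.74 and 0.63. SPRY2, also a Sprouty gene, did not follow on every array: it was the lowest of its line on CRES-1 C (9.67 beside 10.35 and 10.61) and even in RiPS2 (9.39, 9.38 and 9.40). These pairs too are among the highest of all pairs of members. By r with DUSP5, SPRED2 ranked 159 and SPRY4 455 of 11142 genes, so many genes outside the module were as like it. Outside the members, DUSP14 (r = 0.85 with DUSP5), PHLDA1 (0.81) and RASA2 (0.77) were the pathway genes most like DUSP5. They ranked 104, 197 and 306 of the 11142 genes.

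**Figure D5:**
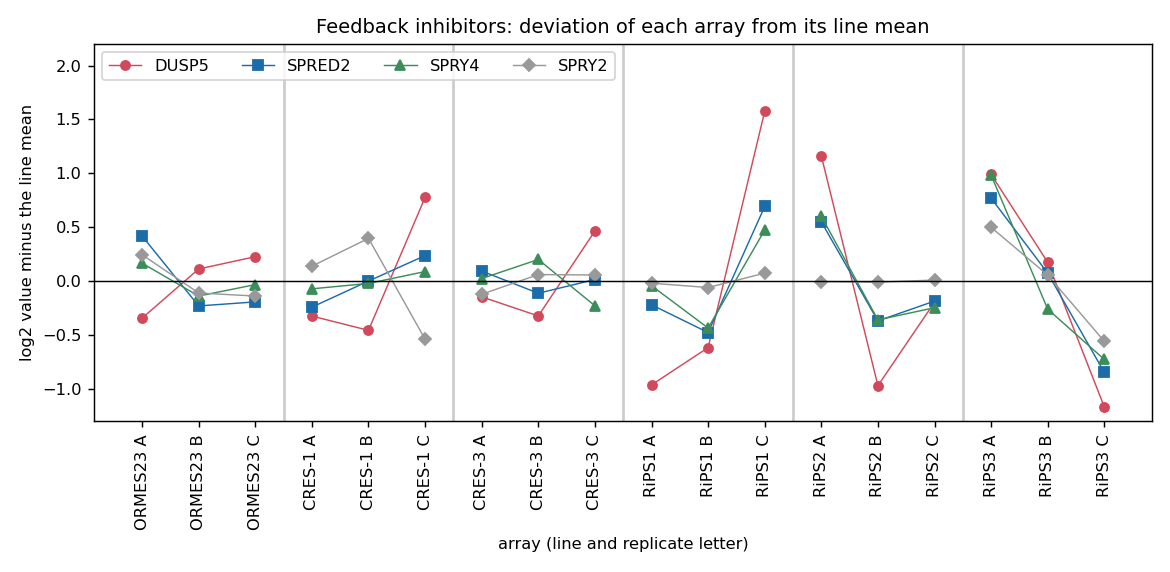
Deviation of each array from its line mean, as a log2 difference (y axis), for DUSP5, SPRED2, SPRY4 and SPRY2 on the 18 pluripotent arrays (x axis, grouped by line). DUSP5 reaches 1.58 on RiPS1 C, 1.16 on RiPS2 A and 0.99 on RiPS3 A, where SPRED2 and SPRY4 also peak, and SPRY2 stays within 0.08 of its mean in RiPS1 and RiPS2.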

How the data were processed

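Affymetrix rhesus arrays measured 7 lines, with 3 arrays each. The authors deposited log2 intensities, 1 per probe set and array, computed by robust multi-array average (RMA) per the submitters' processing notes. For RMA's version and chip description, the sources used here give nothing. RMA brings the arrays to a common distribution, so a shift shared by all genes would not be seen.

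Of 52865 probe sets, 24969 carried 1 gene symbol in the platform annotation, 361 several and 27535 none, and the latter groups were not used. Each gene was read from its brightest probe set, and the 32 members have 58 probe sets. The fit used R 4.3.3 with limma 3.58.1 (a mean per line, 14 residual degrees of freedom, two-sided p, Benjamini-Hochberg over all 11143 genes tested). Neighbouring genes came from RefSeq. The fit was tested on simulated data.

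Members and gene lists were chosen with earlier results of these data known. Every member past the filter was named, and from the other pathway lists the 3 largest called rises and falls. GSC, FOXA2 and CXCR4 come from the marker lists. Correlations of same-lettered arrays of different lines ran from -0.41 to 0.44, with 20 of 63 over 0.1. They were not set beside those of arrays with different letters, so they cannot show whether letters pair arrays. The main fit took no account of the letters. Alternatives were the filter, the probe sets' mean, median centring, the block, array weights, separate fits and leaving out each array.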

Additional observations from a re-analysis of the deposited data

Results flagged for a closer look

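For ETV1, the cloned minus induced difference was lower in the male pair than in the female pair, without a call in either. The induced line came from fetal fibroblasts in the male pair and from a donor aged 8 years in the female pair. Sex and donor stage therefore cannot be told apart here. CRES-1 minus RiPS1 was -0.24 and CRES-3 minus RiPS3 was 0.49, and the difference of the differences was -0.72 on the log2 scale (SE 0.19, limma adjusted p = 0.036, with 4.87% of all genes under the same threshold). Of the 27 members, ETV1 alone was under that adjusted p limit. The difference of the differences fell short of the fold limit for a call. Over 18 alternatives it ran from -0.88 to -0.45, and the adjusted p was under 0.05 in 8 of them, from 0.0072 to 0.10.

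FGF13 went in opposite directions in both pairs. The CRES-1 arrays (9.93, 9.88 and 9.56) all lay above those of RiPS1 (9.28, 9.33 and 9.25), and the CRES-3 arrays (9.60, 9.57 and 9.64) all lay below those of RiPS3 (9.96, 10.42 and 9.76). The interaction was 0.94 on the log2 scale and did not pass (limma adjusted p = 0.40). Among all genes, 459 (4.12%) showed such opposite, separated directions.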

How the results depend on the processing

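Against the fibroblasts the counts of called members stayed within 1.5 times of those given, between 10 and 17 in all settings. The replicate block, which treats same-lettered arrays as a block, gave 16, 16, 12, 16, 13 and 14. Within the pluripotent lines the replicate block changed no count, though among the 6 lines FGF9 lost its call and SPRY4 gained one. Of 88 called member values, 58 kept their call under every alternative, and of 1166 alternative values 1078 kept it, 88 lost it and 0 reversed. The estimate of the array weights stopped before its convergence tolerance was reached, so its calls are given as an alternative only. Array weights gave 1 called member in CRES-1 minus ORMES23 (FGFR3), 3 in CRES-3 minus ORMES23 (DUSP5, FGF9 and FGFR3), 3 in RiPS1 minus ORMES23, 1 in CRES-1 minus RiPS1 (FGF4), 7 among the 6 pluripotent lines and 1 in the interaction (FGF13). A fit of only the compared lines gave 1 in CRES-3 minus ORMES23 (DUSP5), and the mean of all probe sets gave 0 in RiPS1 minus ORMES23 and 1 among the 6 lines. With 1 array left out, the count was 0 to 1 in CRES-3 minus ORMES23 and in RiPS2 minus ORMES23 (FGF9 without ORMES23 A), 0 to 1 in RiPS3 minus ORMES23 (SPRY4 without RiPS3 A), 0 to 1 in CRES-1 minus RiPS1 and in the interaction (FGF12 without CRES-1 C, FGF4 without RiPS1 C), and 0 to 4 among the 6 lines (4 without RiPS3 A). The cause was not tested. Values near log2 5 are limited by background, and 3 arrays per line limit the precision of every value.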
